A study of Mus musculus with 41 samples.

Results

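Of 5147 RHOX10 CUT&Tag peaks, 617 carried an annotation that placed them inside a transcribed exon: 325 were listed as 5' UTR peaks and 292 as exon peaks. They were taken by the class name that begins each entry of the authors' deposited peak annotation, without use of any measured value. The series holds 41 mouse samples (C57BL/6, testis) from 3 assays. For CUT&Tag, which tags DNA at sites bound by an antibody's target, germline stem (GS) cells grown from testes of newborn mice carried a lentiviral shRNA against their own Rhox10 in all groups, and a second lentivirus supplied HA-tagged Rhox10 (RHOX10) or an empty HA vector (Ctrl). An IgG antibody on the HA-Rhox10 cells was the other control, with 3 libraries in each of these groups. iSLAM-seq counted 3' ends of RNA in GS cells with the same knockdown that carried a Rhox10-ERT2-mCherry fusion (Rhox10), which responds to 4-hydroxytamoxifen, or an empty ERT2-mCherry vector (Ctrl), at 0, 0.5, 1, 2, 4 and 8 h with 2 libraries a vector and time. RNA-seq was made from eGFP+ germ cells sorted from testes of wild-type (WT) mice or mice labelled Rhox10-null, both crossed to an OCT4-eGFP reporter line, with 4 libraries a genotype and the testes of 3 animals pooled for each. The age of the RNA-seq animals and the driver of each lentiviral vector are not given in the sources used here.

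RHOX10 belongs to the X-linked reproductive homeobox family, whose members are expressed mainly in the reproductive tract. A homeodomain typically contacts short AT-rich DNA with a TAAT core. The 5' UTR is the transcribed stretch ahead of the start codon, and the first exons of many mammalian genes lie inside the CpG-rich region that surrounds the promoter, so a peak that begins at a promoter can reach into the UTR or the first coding bases. Spermatogonial stem cells found the adult male germline, and GS cells are their cultured counterpart.

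Short windows from these peaks show the motif matches that were looked for, each read from the RefSeq GRCm38.p6 genome as 30 bases, with the matched letters in capitals. The homeodomain-type palindrome TAATTA was found on either strand in the central 300 bases of 3 of 324 5' UTR peaks and 1 of 292 exon peaks (0.34%), against 0.99% of all 5143 peaks with sequence. These are all of its matches in both classes, by linked gene:
Dlx2: cagcaaccaatgTAATTAcggggaggggga
Mzt2: cacgatctcgtgTAATTAccagttctgttg
Sema3e: acttcttgcttcTAATTAtcgagaggagag
Cyp26a1: TAATTAatcacaggcccctggaggtttatt
The windows lie on the plus strand at chr2:71546478-71546507 (Dlx2, exon 1 of 3), chr16:15863204-15863233 (Mzt2, exon 1 of 3), chr5:14025424-14025453 (Sema3e, exon 1 of 17) and chr19:37692811-37692840. The last one is in exon 6 of 6 of Cyp26c1, with Cyp26a1 as the nearest start site; both encode retinoic-acid-degrading enzymes. In Dlx2 and Sema3e the match lay 4 bases or less from the peak centre, and in the other 2 peaks it lay 134 and 146 bases away.

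In iSLAM-seq, the linked gene Sema3e, a secreted guidance factor, ranged from 3.36 to 5.39 CPM (counts scaled to a common library size; median 3.84) in the 10 induced Ctrl libraries and from 6.65 to 11.5 CPM (median 8.93) in the 10 induced Rhox10 libraries, which did not overlap. Its averaged log2 fold change (Rhox10 over Ctrl) was 1.18 (edgeR adjusted p = 1.16e-06). Dlx2, Mzt2 and Cyp26a1 did not pass the same test, with log2 fold changes of 0.35, 0.16 and -0.33 (edgeR adjusted p of 0.091, 0.195 and 0.278), so 1 of 4 passed where 37.1% of all tested genes did. This test averages over the 5 induced times and includes any vector difference already present at 0 h. Of all genes called in it, 90.0% had the same sign at 0 h. Here and for the linked genes below, it does not by itself show a response to induction.

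The cyclic-AMP-response palindrome TGACGTCA was found in 3 5' UTR peaks (0.93%) and 4 exon peaks (1.37%), against 2.53% of all peaks and 3.30% of promoter-TSS peaks. All 7 are shown, by linked gene:
Nr6a1: gctccctcctcTGACGTCAcgcgccgctgc
Ssu72: cgcaggtcctgTGACGTCAcgcgccggcga
Becn1: aggaccagaagTGACGTCAcgacgggagct
Gtpbp6: ggccgggcgttTGACGTCAggatgcaggac
Ndufb2: gtgcgacgcagTGACGTCAcgggccgggac
Mpzl3: actcccgacaTGACGTCActtccggcacca
Lrguk: gccgcgggccaTGACGTCAgtctcctaggc
The first 3 belong to 5' UTR peaks and the other 4 to exon peaks, all in exon 1. On the plus strand they lie at chr2:38926408-38926437, chr4:155705109-155705138, chr11:101302275-101302304, chr5:110107878-110107907, chr6:39592540-39592569, chr9:45055155-45055184 and chr6:34029411-34029440, in the order printed. The match in Becn1, Ndufb2, Mpzl3 and Lrguk was centred 4 to 22 bases upstream of the annotated start of the transcript, and 130 to 135 bases from the centre of the peak. Exon 1 peaks of these classes are centred at least 101 bases past the stated start site. A match at the start site therefore lies off the peak centre by the way the classes are annotated. In iSLAM-seq 3 of the 6 tested genes of this set passed the averaged test: Mpzl3, at 23.2 to 42.4 CPM (median 30.8) in Ctrl and 19.0 to 25.6 CPM (median 21.2) with Rhox10, changed by -0.515 (edgeR adjusted p = 3.98e-05), Nr6a1 by 0.109 and Ndufb2 by 0.121 (edgeR adjusted p of 0.0341 and 0.0434). Gtpbp6 was too low to be tested, and all of these groups overlapped.

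An ETS-type match, CCGGAAG on either strand, occurred in 15.4% of 5' UTR peaks and 8.22% of exon peaks, against 18.6% of promoter-TSS peaks and 14.7% of all peaks. Shown here are matches in high-scoring peaks, 1 of each class, read along the strand that carries them:
Stub1: ctccgccccacaCCGGAAGttccggtggcg
Mcm9: ctgcgtccgcacCCGGAAGaagccccagcg
These lie at chr17:25832941-25832970 and chr10:53629945-53629974, both on the minus strand, 36 and 2 bases upstream of the annotated transcript start. In iSLAM-seq Mcm9 ranged from 18.3 to 22.1 CPM in Ctrl and 11.4 to 19.7 CPM with Rhox10, a change of -0.40 (edgeR adjusted p = 0.000624), and Stub1 was too low to be tested. The shorter core TAAT was present in 25.3% of 5' UTR peaks (95% Wilson interval 20.9 to 30.3) and 14.7% of exon peaks (11.1 to 19.3), against 26.8% of all peaks. The CCAAT box showed the same order, at 21.6% and 15.8% against 33.9% of all peaks, and the GC box GGGCGG was found in 62.0% and 54.5% against 69.6%. The other motifs looked for, on both strands, were GCGCATGC (2.47% and 4.11% against 4.61% of all peaks), CACGTG (7.10% and 7.53% against 10.5%), AAGATGG (7.10% and 5.82% against 5.91%) and TATAAA (2.16% and 2.05% against 2.60%). TAATTA contains TAAT, so its matches count under both. These shares count letters within a fixed window and say nothing of binding.

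The classes differed in score and in reach. The authors' peak score, a value for each merged peak with no replicate values beside it, had a median of 106.4 in 5' UTR peaks (quartiles 62.4 and 161.8) and 80.7 in exon peaks (52.2 and 139.8). Promoter-TSS peaks stood at 166.4, intron peaks at 80.9 and intergenic peaks at 62.9, so exon peaks resembled intron peaks in median score and 5' UTR peaks fell between them and promoters. The highest 5' UTR peak scored 1019 and ranked at position 25 of all peaks, and the highest exon peak scored 806.6 and ranked at position 68. Peaks of both classes were wider than promoter-TSS peaks, with median lengths of 699 and 722.5 bases against 568. Their central 300 bases were equally GC-rich, with medians of 68.3% and 68.0%.

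**Figure D1:**
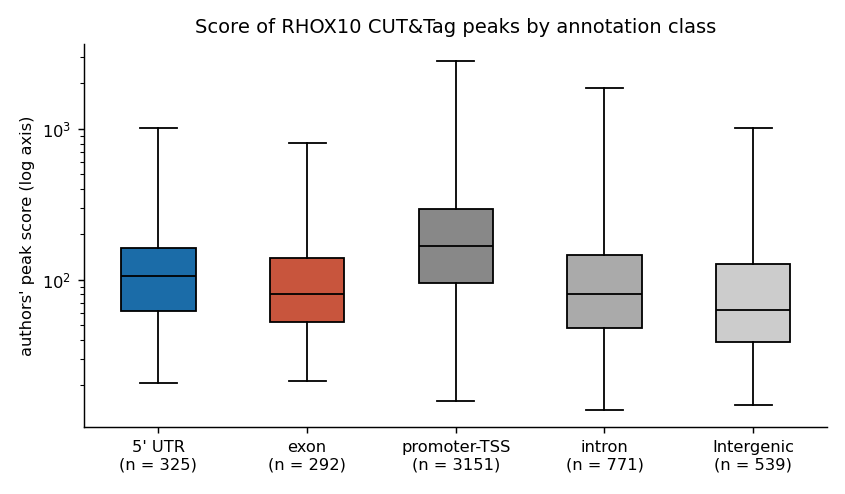
Authors' peak score (log axis) by annotation class, with boxes at the quartiles, a line at the median and whiskers to the lowest and highest peak. The median falls from 166.4 in promoter-TSS peaks to 106.4 in 5' UTR peaks and 80.7 in exon peaks, and the ranges overlap widely.

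All 325 5' UTR peaks were centred downstream of their transcription start site (TSS), from 101 to 1287 bases and with a median of 180 bases. The lower bound follows from the annotation, which names closer peaks promoter-TSS. Exon peaks had a median distance of 245.5 bases, but ran from -221860 (upstream, Rims2) to 134353 bases (Apba1). These are distances to the stated TSS. The nearest GENCODE TSS lay 413 bases from the centre of the Rims2 peak and 11228 bases from that of Apba1. Within 1 kb of the TSS lay 99.7% of 5' UTR peaks (Wilson 98.3 to 99.9) and 76.0% of exon peaks (70.8 to 80.6). Exon 1 held 319 of 325 5' UTR peaks and 215 of 292 exon peaks (73.6%), exon 2 held 6 and 31, and 46 exon peaks sat in exon 3 or later, up to exon 34.

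The transcript models put both classes around the same landmark. In RefSeq, 276 of 324 5' UTR peaks (85.2%) and 167 of 289 exon peaks (57.8%) also covered the TSS of the transcript. The start codon was covered by 168 of 324 5' UTR peaks and 212 of 289 exon peaks, and by 199 of the 214 exon peaks in exon 1. The transcripts themselves differed: the 5' UTR was 345.5 bases long in the median for 5' UTR peaks and 115 bases for exon peaks. The start codon lay in exon 1 for 58.3% and 86.5% of them, respectively. A centre just past 100 bases therefore fell in UTR in one class and in coding sequence in the other, which is what the annotation sorts on and not a property measured apart from it. Transcripts with a single exon made up 6 of 325 and 21 of 292.

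**Figure D2:**
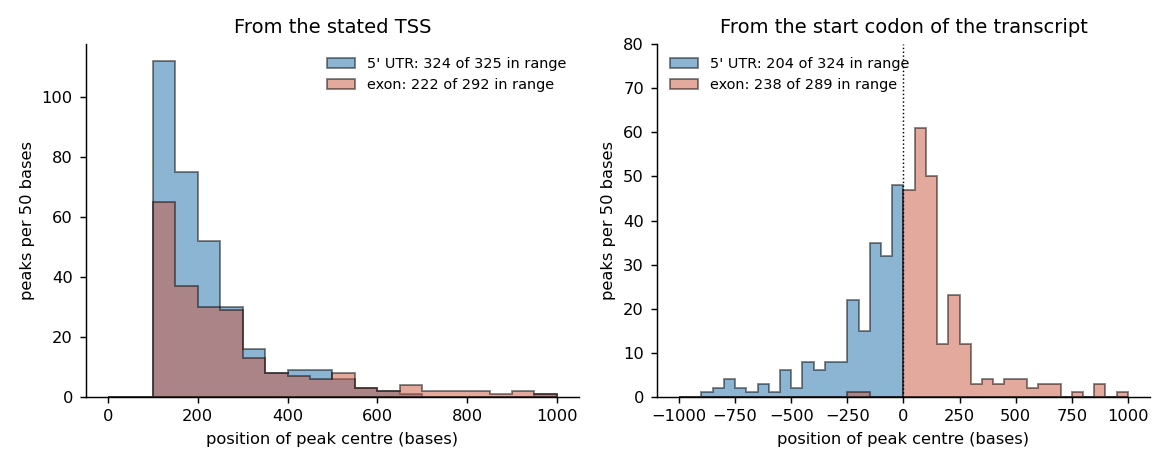
Peak centres per 50 bases, counted from the stated TSS (left) and from the start codon of the annotated transcript (right, negative values upstream), for 5' UTR peaks and exon peaks in the range shown. Both classes pile up between 101 and 300 bases from the TSS and meet at the start codon, by the way they are annotated.

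Within each class, the median score moved little between 101 and 500 bases from the TSS. In 5' UTR peaks it was 109.2 at 101 to 200 bases, 101.1 at 201 to 500 bases and 101.7 at 501 to 1000 bases (13 peaks). Exon peaks scored 86.3, 93.8 and 77.4 in the same intervals, 61.2 at 1001 to 3000 bases and 68.1 beyond 3 kb. Across peaks, score had a Spearman correlation of 0.354 (5' UTR, n = 325) and 0.292 (exon, n = 292) with the linked gene's WT RNA-seq level per length, and of 0.295 and 0.248 with the CpG content of the central 300 bases; peaks share libraries and depth, so these describe the list only.

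The 47 exon peaks beyond 3 kb were split into 32 downstream and 15 upstream of the stated TSS. The median GC content of their central 300 bases was 64.7%, 23 of 47 lay in the last exon, and for 13 of 47 a GENCODE TSS that the nearest-TSS column did not use lay within 1 kb. The highest score, 305.6, belonged to chr7:127254000-127254634 in the last exon of Zfp771, a C2H2 zinc finger gene, where the nearest stated TSS was that of Dctpp1. Other peaks of this kind lay in exon 10 of 10 of Prdm9, the meiotic histone methyltransferase that sets recombination sites (score 40.4), and the last exons of Zfp30, Zfp282, Zfp697 and Prdm13. Genes with Zfp, Prdm, Zic, Zbtb or Zscan symbols carried just 7 of the 47. The next highest score after Zfp771, 255.7, was in exon 5 of 6 of Prx. Others lay in exon 8 of 8 of Runx1 (score 109.3), exon 4 of 5 of Hoxa3 (52.2) and exon 4 of 5 of Sox30 (43.4), all chosen after their values were seen. The Hoxa3 peak had a GENCODE TSS 341 bases away. For 24 of the 47, the annotated transcript and the nearest TSS belonged to the same gene. Among these distant peaks the linked gene is therefore often not the gene whose exon carries the peak. Among all exon peaks, transcript and nearest TSS belonged to the same gene for 261 of 292.

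High-scoring peaks of the 5' UTR class were linked to Atf7 (a cyclic-AMP-responsive family transcription factor, 1019), Laptm4a (a lysosomal membrane protein, 672.5), Ube4b (a ubiquitin ligase, 586.8), Rsbn1 (569.4), Anln (the cytokinesis protein anillin, 454.2), Stub1 (the co-chaperone ubiquitin ligase CHIP, 445.8) and Trim37 (a ubiquitin ligase, 426.8). For exon peaks they were Saysd1 (806.6), Gtpbp6 (639.1), exon 2 of Cmya5 with A630019I02Rik as the nearest TSS (500.3), Rnpc3 (a minor-spliceosome protein, 490.8), Epc2 (a chromatin-complex subunit, 386.5), Mcm9 (a replication and repair helicase, 370.1), Polr1b (a subunit of RNA polymerase I, 324.1) and Gbe1 (glycogen branching enzyme, 317.6). The centre lay in the stated exon of the RefSeq model used here for 601 of 613 peaks, with Mcm9, Stub1, B4galt1 and Nav1 among the exceptions. Only Zic5 and Shroom3 had more than 1 member peak: Zic5 had 2 exon peaks in exon 1 (scores 63.9 and 61.9), and Shroom3 had a 5' UTR peak (88.7) and an exon peak in exon 4 (39.9).

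Rhox10 itself carried an exon peak, chrX:38066406-38066893, in exon 1 of 3, with a score of 83.9. It covered both the TSS and the start codon, and no other listed peak lay on the gene. The CUT&Tag cells also carried a lentiviral copy of Rhox10, so reads over its exon 1 from the gene and from the vector cannot be told apart. In RNA-seq, Rhox10 had 3 to 10 counts in WT libraries and 4 to 11 counts in those labelled null, or 0.716 ± 0.461 and 1.03 ± 0.392 CPM of library totals (SD, n = 4 each; two-sided exact permutation p = 0.286). This gene does not separate the genotypes, and the second group is called libraries labelled null throughout. In iSLAM-seq, the 10 induced Rhox10 libraries held 34.1 to 46.7 CPM and the Ctrl libraries 0.202 to 2.42 CPM, and the fold change at 0 h was 4.79 on the log2 scale.

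Some features of the libraries touch every result on linked genes. A single gene, Gm42418, took 50.98% to 59.37% of RNA-seq counts, and 1379870 to 2128523 counts per library were left after removing genes above 1%. The 24 iSLAM-seq libraries held 9419615 to 12645845 counts. The Ctrl libraries at 0.5 h stood apart from each other, with a chi-square per degree of freedom of 30.02 between them, where the next highest pair reached 5.13. Of 27 spermatogonial markers 24 were tested in RNA-seq and 22 were lower in libraries labelled null, with a summed level of 447.5 to 461.2 CPM in WT and 233.2 to 244.5 CPM in those libraries, and none at 0. All 7 peritubular and stromal markers were higher (441 to 465.9 against 701.1 to 741 CPM), as were all 8 tested erythroid markers (17.3 to 21.3 against 107.1 to 119.1 CPM). Summed Sertoli markers went from 422.7 to 450.5 CPM in WT to 483.8 to 500.6 CPM (2 of 8 tested higher, 1 lower), Leydig markers from 71.8 to 73.6 to 87.1 to 92.9 CPM (4 of 5 higher), endothelial markers from 23.9 to 29.2 to 35.8 to 40.4 CPM (3 of 4 higher) and macrophage markers from 10.5 to 11.9 to 13.9 to 16.0 CPM (1 of 4 higher). In iSLAM-seq the spermatogonial sum was 5152 to 6002 CPM in Ctrl and 4329 to 4836 CPM in Rhox10 libraries, with 19 of 27 markers lower and 3 higher. There, peritubular and stromal markers summed to 982.4 to 1604 CPM in Ctrl and 1172 to 2003 CPM with Rhox10 (4 higher and 1 lower of 7), Sertoli markers to 184.3 to 443.7 and 238.1 to 556.2 CPM (2 higher and 1 lower of 5 tested), and Leydig markers to 9.31 to 17.4 and 8.13 to 14.2 CPM (none of 2 tested called). Endothelial markers summed to 31.3 to 46.8 and 19.8 to 32.0 CPM (3 of 4 lower), macrophage markers to 19.97 to 33.36 and 15.4 to 23.1 CPM (1 of 2 tested lower) and erythroid markers to 13.9 to 32.2 and 5.91 to 20.7 CPM (2 of 3 tested lower), and Amh, Hsd3b1, Insl3 and Hbb-bt were listed at 0. The part of this shift in the results below was not tested, and in such bulk samples fewer cells of a type and less RNA per cell cannot be told apart. RNA-seq p-values measure the spread between pools of animals, and iSLAM-seq p-values that between replicates of cultured cells.

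The peaks led to 615 genes, 325 for 5' UTR peaks and 291 for exon peaks with 1 gene in both. Linked genes of 5' UTR peaks had a median of 25.4 CPM in iSLAM-seq Ctrl libraries and those of exon peaks 12.4 CPM, against 36.6 CPM for promoter-TSS peaks and 9.11 CPM over all 20642 tested genes. In WT RNA-seq, per length (RPKM), the medians were 1.33 and 0.916, and 18 exon-linked genes had no count against 6 for 5' UTR peaks. The low end was held by distant peaks: exon-linked genes within 1 kb had a median of 1.19 and those beyond 3 kb 0.265. A minimum-count filter therefore kept 279 of 325 and 193 of 291 genes in RNA-seq, and 310 of 325 and 256 of 291 in iSLAM-seq.

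Between genotypes, genes linked to 5' UTR peaks changed as often as genes in general and with more rises than falls. Called genes (edgeR adjusted p under 0.05) made up 37.5% of all 13538 tested, 18.6% higher and 18.9% lower in libraries labelled null. Of the 279 tested 5' UTR genes 64 were higher and 35 lower (35.5%, Wilson 30.1 to 41.3), and of the 193 exon genes 26 were higher and 34 lower (31.1%, 24.98 to 37.93). Taken over all levels, both shares are close to the background. By level (under 5, 5 to 20, and 20 CPM or more), 25.95%, 39.5% and 55.6% of all tested genes were called. It was 23.6%, 30.8% and 55.4% of 5' UTR genes, and 21.9%, 34.4% and 39.4% (13 of 33) of exon genes. The excess of rises was shared by intron-linked genes, with 155 higher and 90 lower (40.7% of 602 tested). Promoter-TSS genes had 438 higher and 553 lower (35.7% of 2779 tested). DESeq2 called fewer, 30 higher and 18 lower for 5' UTR genes and 14 and 22 for exon genes, against 22.01% of all tested genes. With the gene of the annotated transcript in place of the nearest TSS, the exon calls were 32 higher and 30 lower, so the balance in that class turned. The median log2 fold change was 0.08 for 5' UTR genes, -0.03 for exon genes and 0.00 for all tested genes. The direction rests on scaling: with library totals in place of TMM the median of all genes moved up by 0.347 and the calls became 183 higher and 5 lower for 5' UTR genes and 97 and 9 for exon genes, against 7229 higher and 629 lower of all tested genes (58.0% called). With the spermatogonial list as the scale it moved by 0.986, and 273 and 178 genes were higher and none lower, against 12601 higher and 54 lower of all tested genes (93.5% called). Changes are therefore given relative to the bulk of genes.

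The 5 rises of smallest p among 5' UTR genes with at least 5 CPM and groups apart were in Greb1, Fras1, Baz2b, Pcsk5 and Nexmif. Greb1, known as an estrogen receptor target, measured 49.5, 46.3, 47.1 and 52.8 CPM in WT libraries and 74.9, 76.0, 80.1 and 71.3 CPM in those labelled null. Its groups did not overlap, with a log2 fold change of 0.63 (SE 0.06; edgeR adjusted p = 2.57e-12). Fras1, an extracellular matrix protein of epithelial basement membranes, rose from 12.3 to 15.1 CPM in WT to 21.4 to 24.1 CPM, by 0.68 (edgeR adjusted p = 3.18e-08). Baz2b, a chromatin reader, had 38.0 to 40.8 CPM in WT and 51.9 to 54.6 CPM in libraries labelled null, a rise of 0.43 (edgeR adjusted p = 4.43e-08). Pcsk5, a proprotein convertase, had 18.7, 18.4, 16.3 and 18.5 CPM in WT and 26.6, 24.6, 27.5 and 25.4 CPM in the others, a rise of 0.54 (edgeR adjusted p = 4.2e-07). Nexmif, an X-linked neuronal gene, rose by 0.57 (edgeR adjusted p = 1.99e-06). All 5 kept their direction and their call under every scaling tried.

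Falls chosen the same way were in Nelfb, Rad50, Arvcf and Dusp6. Nelfb, a subunit of the complex that pauses RNA polymerase II, measured 16.7, 13.0, 17.0 and 17.6 CPM in WT and 9.28, 10.6, 8.65 and 11.7 CPM in libraries labelled null. The log2 fold change was -0.69 (SE 0.11; edgeR adjusted p = 2.64e-06), with no overlap. Rad50, a DNA double-strand break repair protein, had 25.4, 19.8, 23.6 and 25.4 CPM in WT and 15.8, 16.7, 14.1 and 19.2 CPM in the others, groups close to each other but apart. It fell by 0.53 (edgeR adjusted p = 1.01e-05), and Arvcf, a catenin, by 0.77 (edgeR adjusted p = 1.41e-05). Dusp6, a phosphatase that switches off ERK signalling, fell by 0.35 (edgeR adjusted p = 1.51e-05). With the spermatogonial scale all 4 of these turned positive, and with library totals Rad50 and Dusp6 were no longer called.

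The smallest p in either class belonged to the exon-linked Mdn1, which encodes the ribosome-assembly ATPase midasin and has its peak in exon 1 of 102. It measured 233, 230, 233 and 231 CPM in WT libraries and 108, 119, 111 and 109 CPM in libraries labelled null. That is a log2 fold change of -1.05 (SE 0.05; edgeR adjusted p = 5.48e-23), with groups far apart, which shrank to -0.06 and was no longer called on the spermatogonial scale. Polr1b, whose product makes ribosomal RNA, measured 17.9, 18.7, 16.8 and 15.5 CPM in WT and 10.9, 10.3, 11.1 and 8.61 CPM in the others, a change of -0.74 (SE 0.10; edgeR adjusted p = 1.6e-07). C1qbp, a mitochondrial matrix protein, had 13.4, 14.4, 14.7 and 11.7 CPM in WT and 7.21, 6.09, 8.53 and 6.73 CPM, a change of -0.91 (SE 0.12; edgeR adjusted p = 6.7e-08). Uba2, a subunit of the SUMO-activating enzyme, fell by 0.57, and Gemin5, which loads small nuclear RNAs, by 0.45 (edgeR adjusted p of 1.46e-08 and 6.77e-06). Polr1b, C1qbp, Uba2 and Gemin5 turned positive on the spermatogonial scale.

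Among exon-linked genes that rose, the first by p were Pkd2, Nav1, Pxdn, Tril and Ndfip2. These rises and the falls above were taken from called genes with at least 5 CPM and groups apart. Pkd2, a polycystin cation channel, had 21.8 to 22.4 CPM in the WT libraries and 29.7, 26.9, 30.9 and 28.8 CPM in the others, with no overlap and a rise of 0.40 (SE 0.07; edgeR adjusted p = 2.04e-05). Nav1, a microtubule-binding neuron navigator, rose by 0.28 (edgeR adjusted p = 2.28e-05), and Pxdn, a peroxidase of the extracellular matrix, by 0.27 (edgeR adjusted p = 0.000321). Tril rose by 0.61 and Ndfip2, an adaptor of NEDD4 ubiquitin ligases, by 0.60 (edgeR adjusted p of 0.000613 and 0.000684), each from lower levels of 4.88 to 9.20 CPM in WT.

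**Figure D3:**
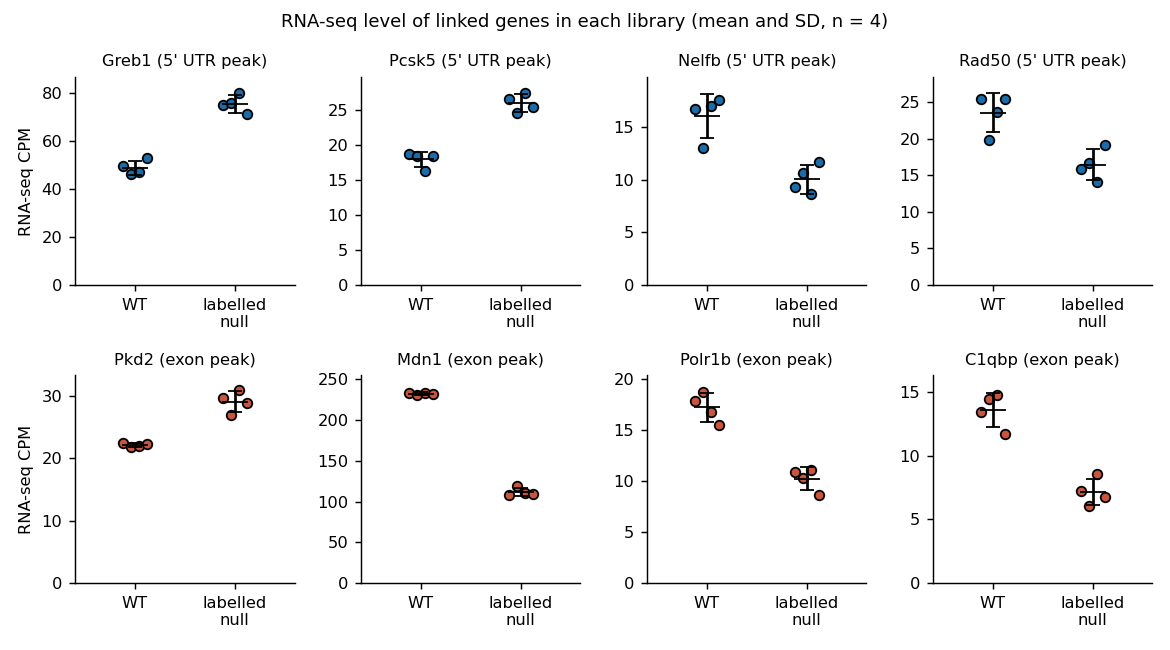
RNA-seq level in CPM of 8 linked genes in each library, WT against libraries labelled null, with bars for the mean and SD (n = 4). In every panel the groups are apart, as the choice of these genes required. The shift is upward for Greb1, Pcsk5 and Pkd2 and downward for Nelfb, Rad50, Mdn1, Polr1b and C1qbp.

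Between the vectors in GS cells, called genes were more frequent among 5' UTR genes than among all genes. Averaged over the 5 induced times, 37.1% of all 20642 tested genes were called, 18.7% higher and 18.4% lower with Rhox10. Of 310 tested 5' UTR genes 88 were higher and 73 lower (51.9%, Wilson 46.4 to 57.4), and of 256 exon genes 56 were higher and 48 lower (40.6%, 34.8 to 46.7). For promoter-TSS peaks the share was 48.7% (46.9 to 50.4) and for intron peaks 48.3% (44.6 to 52.0), so the excess was not particular to 5' UTR genes. Call shares over all tested genes rose with level, from 8.72% under 1 CPM through 24.5% (1 to 10 CPM) and 51.7% (10 to 100 CPM) to 68.4% at 100 CPM or more. In the same order they were 16.7%, 32.8%, 56.9% and 68.4% for 5' UTR genes, and 4.55%, 28.8%, 52.7% and 43.3% (13 of 30) for exon genes, which did not rise at the top level. The part of level in the difference between classes was not tested beyond these shares.

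Much of the vector difference preceded induction. At 0 h, 10.9% of all tested genes were called, against 57 of 310 5' UTR genes (18.4%) and 35 of 256 exon genes (13.7%). Of the genes called in the averaged comparison, 146 of 161 and 93 of 104 had the same sign at 0 h; the share over all tested genes was 90.0%. The 0 h counts were among the least steady: leaving out a Ctrl 0 h library, or Rhox10 0 h replicate 2, lowered the 5' UTR count to between 32 and 36, and leaving out a Ctrl 0.5 h library raised it to 87 or 88. For exon genes it fell to 23 without Ctrl 0 h replicate 1 and to 22 without Rhox10 0 h replicate 1. The share over all tested genes moved as well. It was 4.84% and 5.08% without Ctrl 0 h replicate 1 or 2, and 5.99% and 5.06% without Rhox10 0 h replicate 1 or 2. Without either Ctrl 0.5 h library it was 17.2%, so these swings were shared by genes in general.

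Among 5' UTR genes higher with Rhox10 at all 5 induced times, the smallest p belonged to Cpe, Mdm2, B4galt1 and Phlda3. Mdm2, the ubiquitin ligase that degrades p53, ranged from 468.3 to 602.6 CPM (median 553) in the 10 induced Ctrl libraries and from 623.2 to 1117 CPM (median 842.8) in the Rhox10 libraries. The groups did not overlap, and the averaged log2 fold change was 0.64 (SE 0.03; edgeR adjusted p = 2.2e-14), but it was 0.76 at 0 h. Phlda3, a p53 target that restrains AKT, ranged from 84.3 to 107.3 CPM in Ctrl and 134.9 to 177.9 CPM in Rhox10 libraries, a change of 0.76 (edgeR adjusted p = 3.77e-12) after 0.94 at 0 h. Cpe, a carboxypeptidase that trims peptide hormones, had 86.3 to 126.9 CPM in Ctrl and 176.4 to 220.7 CPM with Rhox10, a change of 1.04 (edgeR adjusted p = 1.89e-14) after 0.93 at 0 h. B4galt1, a galactosyltransferase, changed by 0.70 (edgeR adjusted p = 1.32e-12) after 0.66 at 0 h.

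The 5' UTR genes lower with Rhox10, chosen the same way, were Elavl2, Rrm1, Ska1 and Tnrc6c. Rrm1, the large subunit of ribonucleotide reductase, ranged from 199.8 to 241.9 CPM in Ctrl and from 136.6 to 175.9 CPM in Rhox10 libraries, a log2 fold change of -0.52 (SE 0.04; edgeR adjusted p = 1.22e-10). Ska1, a kinetochore protein, fell by 0.55, Tnrc6c, a protein of microRNA silencing, by 0.47, and Elavl2, an RNA-binding protein of germ cells and neurons, by 0.43 (edgeR adjusted p of 2.03e-09, 7.8e-09 and 2.25e-11). Rrm1, Ska1 and Tnrc6c lay between -0.32 and -0.72 at each of the 5 induced times, whereas Elavl2 had no difference left at 8 h (323.5 and 327.1 CPM in Ctrl, 323.9 and 325.5 CPM with Rhox10). The 0 h values were -0.49 for Rrm1, -0.55 for Ska1, -0.46 for Tnrc6c and -0.63 for Elavl2.

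By p, the first exon-linked genes lower with Rhox10 were Eomes, Mdn1, Acss1 and Chrna4, and the first higher ones Rhox10 itself, Prdx6, Runx1 and Gbe1. Mdn1 ranged from 645.4 to 810.1 CPM in Ctrl and from 528.2 to 608.5 CPM with Rhox10, a change of -0.38 (edgeR adjusted p = 3.4e-11) after -0.36 at 0 h. Eomes, a T-box factor of early undifferentiated spermatogonia and the only marker of the spermatogonial list with a peak in either class, ranged from 77.3 to 132.6 CPM (median 110.1) in the induced Ctrl libraries and from 39.4 to 67.2 CPM (median 49.1) in the Rhox10 libraries. The log2 fold change was -1.10 (SE 0.05; edgeR adjusted p = 5.24e-14), and -0.87 at 0 h; its peak lay 934 bases into exon 1, chr9:118478585-118479661. Eomes was too low in RNA-seq to be tested, at 0.132 to 1.5 CPM. Acss1, a mitochondrial acetyl-CoA synthetase, had 22.7 to 29.3 CPM in Ctrl and 9.85 to 16.8 CPM with Rhox10. It changed by -1.09 (edgeR adjusted p = 4.35e-11) after -1.05 at 0 h. Chrna4, a nicotinic receptor subunit, changed by -0.99 (edgeR adjusted p = 1.75e-10) after -1.20 at 0 h. Gbe1, with one of the top exon scores, had 23.6 to 34.8 CPM in Ctrl and 45.1 to 67.7 CPM with Rhox10. Its change was 0.93 (SE 0.06; edgeR adjusted p = 8.18e-11) after 1.10 at 0 h. Prdx6, an antioxidant peroxiredoxin, changed by 0.54 (edgeR adjusted p = 3.99e-12) after 0.545 at 0 h. Its groups overlapped, with 184.7 to 272 CPM in Ctrl and 241 to 331.9 CPM with Rhox10.

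**Figure D4:**
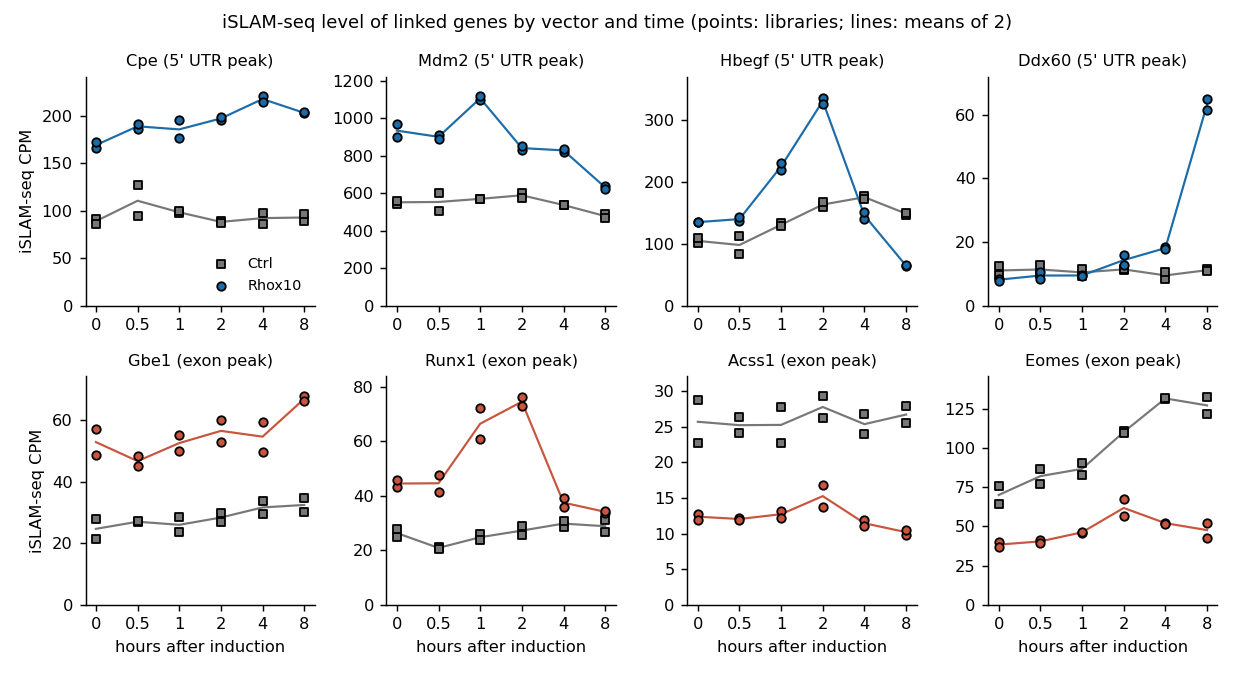
iSLAM-seq level in CPM by hours after induction for 8 linked genes, with a point for each library and a line through the mean of 2. Every gene shown but Ddx60 differs between the vectors at 0 h already (edgeR adjusted p under 0.05). With Rhox10, Runx1 and Hbegf peak at 1 to 2 h, and Ddx60 rises to 64.9 and 61.5 CPM at 8 h.

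A change of the vector difference after 0 h was called for few genes. The background was 2.39% of tested genes (494), against 11 of 310 5' UTR genes (3.55%, Wilson 1.99 to 6.24) and 4 of 256 exon genes (1.56%, 0.61 to 3.95). The Ctrl pair at 0.5 h weighed on this count: without the 0.5 h libraries of both vectors 38 and 19 genes were called, when 7.35% of all tested genes were. Without only Ctrl 0.5 h replicate 1 the counts were 89 and 57 (19.5% of all tested genes), and without Ctrl 0.5 h replicate 2 they were 37 and 18 (7.01%), so the rise was shared by genes in general. Leaving out either Rhox10 8 h library lowered the exon count to 1, and leaving out Ctrl 2 h replicate 1, Ctrl 8 h replicate 2 or Rhox10 4 h replicate 2 lowered it to 2.

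The genes with the clearest time course moved in different ways. Hbegf, an EGF-family growth factor with a 5' UTR peak, had 134.1 and 135.0 CPM at 0 h with Rhox10, 334.2 and 325.8 CPM at 2 h, and 63.1 and 65.2 CPM at 8 h. In Ctrl libraries it had 100.4 and 108.2, 158.5 and 167.3, and 146.5 and 150.0 CPM at the same times. The vector difference of Hbegf (log2) was 0.37 at 0 h, 1.02 at 2 h and -1.21 at 8 h (edgeR adjusted p = 2.02e-09 for the change). Ddx60, an interferon-induced RNA helicase, had 8.45 and 7.79 CPM at 0 h and 64.9 and 61.5 CPM at 8 h with Rhox10, and stayed at 8.47 to 12.7 CPM in the induced Ctrl libraries, so that its difference went from -0.44 to 2.51 (edgeR adjusted p = 3.21e-07).

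Runx1, a haematopoietic transcription factor whose peak lies 91313 bases from the stated TSS in its last exon, was higher with Rhox10 by 0.76 at 0 h, 1.45 at 2 h and 0.24 at 8 h (edgeR adjusted p = 0.000128 for the change). Herc6, an interferon-induced ligase with an exon peak, reached 26.5 and 26.1 CPM at 8 h with Rhox10 against 5.53 and 7.63 CPM in Ctrl (log2 difference 2.00). The test of its change over the time course gave an edgeR adjusted p of 0.00994, a call lost without either Rhox10 8 h library or without Ctrl 8 h replicate 1. Mdm2 fell from 0.76 at 0 h and 0.96 at 1 h to 0.40 at 8 h (edgeR adjusted p = 0.00441), Elavl2 closed from -0.63 to 0.00 (edgeR adjusted p = 0.000174), and Sertad1 went from 0.48 to -0.68 (edgeR adjusted p = 0.000236). Zfp229 stood at -0.23 at 0 h and -1.03 at 8 h (edgeR adjusted p = 0.00342), and Rsbn1, with one of the top scores, at 0.25 and -0.37 (edgeR adjusted p = 0.0168). The calls of Trim11 and Efna4 (edgeR adjusted p of 0.0226 and 0.029) were each lost when any of several libraries was left out.

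Genes called in both assays more often had the same sign in both than the opposite. The contrasts are libraries labelled null over WT and Rhox10 over Ctrl, and they share no library. Of 61 5' UTR genes called in both, 26 were higher in both, 21 lower in both and 14 opposite (23.0%). Of 35 exon genes, 14 were higher in both, 14 lower in both and 7 opposite (20%). Over all tested genes 641 of 2406 were opposite (26.6%), so neither class stood far from the rest.

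Among the opposite pairs of smallest RNA-seq p, most differences were small. C1qbp was lower in libraries labelled null and higher with Rhox10, by 0.22 (199.6 to 305.1 CPM in Ctrl and 307.5 to 340.3 CPM with Rhox10; edgeR adjusted p = 0.00106). Prdx6 had the same pattern (RNA-seq -0.36, iSLAM-seq 0.54), as did Api5, an apoptosis inhibitor (-0.45 and 0.18). In the other direction, Nexmif, Slc22a17, Atrx (a chromatin remodeller) and Gnas (the stimulatory G protein subunit) had RNA-seq log2 fold changes of 0.57, 0.43, 0.28 and 0.19 and averaged iSLAM-seq ones of -0.25, -0.24, -0.16 and -0.75. On the spermatogonial scale C1qbp, Prdx6 and Api5 were positive in RNA-seq as well.

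**Figure D5:**
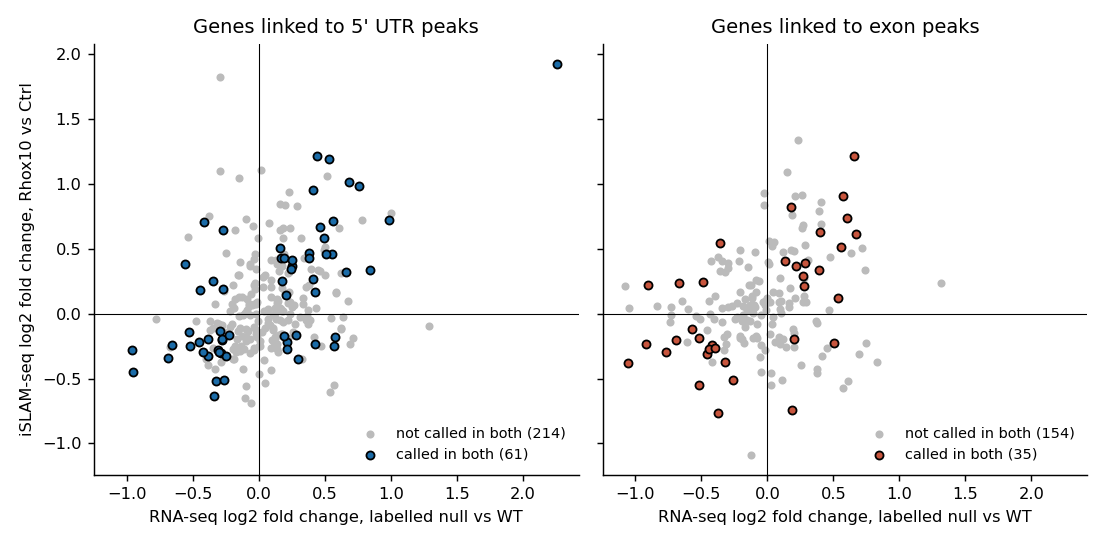
RNA-seq log2 fold change (libraries labelled null over WT, horizontal) against the averaged iSLAM-seq log2 fold change (Rhox10 over Ctrl, vertical) for genes tested in both assays, with genes called in both in colour. Of the 61 and 35 coloured points all but 14 and 7 lie in the upper right and lower left quadrants.

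By family, linked genes were spread thinly, and the direction in a family was that of a handful of genes. Zinc finger genes with numbered Zfp, Zscan, Zkscan, Zbtb, Zik or Zim symbols, a rule that leaves out others such as Zic5 and Prdm13, numbered 11 in the 5' UTR class and 5 in the exon class; in the averaged iSLAM-seq comparison 1 rose and 6 fell of the 11, while 3 rose and none fell of the 5, against 55 up and 80 down of 431 tested. Ubiquitin-system genes were 9 in each class, with 2 up and 2 down of 9 tested in one and 3 up and none down of 8 in the other, against 49 up and 71 down of 295. Solute carriers were 12 and 2, with 3 up and 2 down of 9 tested in the 5' UTR class and 1 up and 1 down of 2 in the exon class, against 76 up and 46 down of 285. In RNA-seq 3 of 8 tested 5' UTR solute carriers were higher and none lower, against 50 higher and 22 lower of 199. Of 9 homeobox genes (Barhl1, Dlx2, Nkx2-9, Pax9 and Zfhx3 with 5' UTR peaks, Lhx6, Pou4f2, Rhox10 and Rhox13 with exon peaks) just 1 of each class could be tested in RNA-seq, where Zfhx3 was called (-0.217 with TMM scaling) and Rhox13 was not, against 20 higher and 12 lower of 44 tested homeobox genes. In iSLAM-seq Pax9 (log2 fold change 1.34; edgeR adjusted p = 0.00877) and the vector-borne Rhox10 were higher among 8 tested, against 42 higher and 27 lower of 144. Histone genes had no linked peak of either class. Ribosomal protein genes had 1, which lay in exon 4 of 5 of Klb, with Rpl9 as the nearest start site, 11638 bases away.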

How the data were processed

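Gene counts of 8 RNA-seq and 24 iSLAM-seq libraries and a table of merged RHOX10 peaks were used. The authors deposited raw counts per gene, per the file headers, and 1 score per peak, the peak caller's own value. The submitters' processing notes name Bowtie2 2.2.5, SAMtools, HOMER and mm10 for CUT&Tag, STAR 2.5.2b, Subread featureCounts, DESeq2 and GRCm38 for RNA-seq, and limma 3.42.2 and mm10 for iSLAM-seq. Whether iSLAM-seq counts hold all reads or converted reads only, the strand setting, and the use of controls in peak calling are not given in the sources used here. RNA-seq libraries held 6602089 to 8278887 counts and iSLAM-seq libraries 9419615 to 12645845, which limits genes of a few counts.

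Each peak was linked to the gene of its nearest start site, by the authors' identifier for 611 of 617. Counts of all genes were fitted with edgeR 4.0.16 in R 4.3.3 (quasi-likelihood test, TMM scaling, filter on low counts), by genotype or as 12 vector and time groups, with Benjamini-Hochberg adjustment over all tested genes and a threshold of 0.05. Fold changes are log2. Peaks were compared with transcript models and the RefSeq GRCm38.p6 genome (Python 3.11.15, samtools 1.23.1). Motifs were exact matches on both strands in the central 300 bases. Shares carry 95% Wilson intervals, which cover counting error only, and classes were not tested against each other. Each model was checked on simulated data in which 200 genes had known fold changes.

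Named genes are Rhox10 and linked spermatogonial markers; the 8 top-scoring peaks a class; the 5 higher and 5 lower called genes of smallest p in RNA-seq (at least 5 CPM, groups apart); the 4 higher and 4 lower in the averaged iSLAM-seq comparison with 1 sign at all 5 induced times; up to 5 called for change; up to 4 of opposite sign in both assays; and genes with several peaks. Genes linked to printed sequences, distant peaks and homeobox genes were named after their values were seen. Some genes that the rule names are not reported here. The members and lists were chosen with earlier results of these data known. Same-numbered libraries did not deviate together (mean correlation -0.002 over 4 RNA-seq pairs and 0.006 over 132 iSLAM-seq pairs), so no block was used. Alternatives were other scalings (DESeq2 size factors, library totals, the spermatogonial list), DESeq2 1.42.0, no filter, a replicate block, leaving out each library or the 0.5 h libraries, removing genes above 1% of a library, the transcript's own gene, and peak subsets.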

Additional observations from a re-analysis of the deposited data

Results flagged for a closer look

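In 5 of 108 groups of 4 RNA-seq libraries examined for the named genes, 1 library stood far from the others, where chance gives about 1 in 20 (5.4 groups). The gap to the nearest library, as a share of the group's range, was 0.876 for Rsbn1 in replicate 3 of the libraries labelled null (12 CPM against 9.27 to 9.61) and 0.897 for Pcsk5 in WT replicate 3 (16.3 against 18.4 to 18.7 CPM). It was 0.843 for Nexmif in replicate 4 of those labelled null (19.0 against 21.6 to 22.1 CPM), 0.874 for Prdx6 in replicate 1 of those labelled null (17.8 against 13.9 to 14.4 CPM) and 0.92 for Gnas in WT replicate 1 (72.9 against 80.4 to 81.0 CPM).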

How the results depend on the processing

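Of 232 recomputed counts of called genes 197 stayed within 1.5 times the reported count, and of 1290 recomputed values of named genes 1247 kept their direction and call. RNA-seq counts for 5' UTR and exon genes became 188 and 106 with library totals, 273 and 178 on the spermatogonial scale, and 48 and 36 with DESeq2. With only peaks at or above the median score fewer genes are counted. The RNA-seq counts were then 39 of 114 tested (34.2%) and 17 of 66 (25.8%). In iSLAM-seq, with 118 and 76 tested, they were 58 and 25 averaged, 22 and 7 at 0 h, and 5 and 1 for the change. The change counts became 21 and 8 without the filter and 38 and 19 without the 0.5 h libraries, and 12 exon genes with DESeq2. Of all tested genes 2.66%, 7.35% and 4.05% were called in these settings, against 2.39% in the main fit. Leaving out 1 library gave 32 to 88 and 22 to 50 at 0 h and 8 to 89 and 1 to 57 for the change. Meanwhile the share over all tested genes ran from 4.84% to 17.2% at 0 h and from 1.42% to 19.5% for the change. With the replicate block the counts were 96 and 60 in RNA-seq, 160 and 105 averaged, 58 and 35 at 0 h, and 11 and 5 for the change. RNA-seq directions turned on the spermatogonial scale for Nelfb (0.30), Rad50 (0.46), Arvcf (0.21), Dusp6 (0.64), Api5 (0.54), Polr1b (0.25), Uba2 (0.41), C1qbp (0.0787), Gemin5 (0.54) and Prdx6 (0.63). With library totals Rad50, Dusp6, Api5, Gemin5 and Prdx6 were no longer called. Except where the construction shows it, the cause was not tested. Within 500 bases of the TSS lay 95.7% of 5' UTR peaks and within 2000 bases all of them (100%), against 66.8% and 81.8% of exon peaks, and 79.3% of exon peaks at or above the median score were in exon 1.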
